A study of Mus musculus with 15 samples.

Results

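The regions described are the stretches of the mouse genome where ChIRP-seq peaks of *116HG* from both WT replicates covered at least 1 common base. They were chosen by overlap: a peak of WT *116HG* replicate 1 was taken if it overlapped a peak of replicate 2, lay on an autosome outside a window of 853 kb on chromosome 7 (the Prader-Willi region from which the RNA is made), and overlapped no peak of the 3 control libraries. This selected 1557 of the 78033 peaks of replicate 1 (2.00%). They overlapped 1556 of the 11145 peaks of replicate 2 (14.0%). All 5 deposited lists together hold 97524 peaks.

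ChIRP pulls an RNA out of cross-linked chromatin with biotinylated oligos complementary to it, and the DNA that comes along is sequenced. The ChIRP libraries were made from a hemisphere of adult mouse brain with custom *116HG* oligos or custom non-specific control (NSC) oligos. *116HG* was captured from 2 libraries of WT C57BL/6J brain, and the controls were WT brain with NSC oligos and *Snord116del* brain (B6(Cg)-Snord116tm1.1Uta/J, paternally inherited deletion, +/-) with *116HG* or NSC oligos, each as 1 library. RNA-seq of adult cortex covered WT and *Snord116del* mice at Zeitgeber (Zt) +6, in the light phase, and at Zt +16, in the dark phase, with 3 WT samples at Zt +6 and 2 samples in each other group. The peak lists carry no read counts, so the depth behind a single peak is unknown, and the RNA table gives 1 value per group, so no spread between mice can be seen.

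*116HG* is the long noncoding host transcript that remains after *Snord116* snoRNAs are spliced from the paternal transcript of the Prader-Willi locus, and it forms a cloud at its site of transcription in neurons. A peak shared by replicate pulldowns is commonly taken as a candidate for a site that an RNA contacts, which overlap alone does not establish. Runs of A, or of T when read on the other strand, are common in mammalian genomes because SINE and LINE elements insert copies of RNAs that end in A. B1 elements, the most frequent mouse SINEs, carry such a tail at their 3' end. Reads from such repeats can match many places, so an aligner may place them at any of several copies.

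Of the 1557 shared regions, 1416 contained an unbroken run of at least 20 A or T (90.9%, exact Clopper-Pearson 95% interval 89.4 to 92.3). Such a run is called a tract here. Of the 5 regions with the largest fold over input in replicate 1 by the authors' peak caller, 3 are at most 300 bases long, lie outside exons and can be shown whole. All 3 are built around a tract. Capitals mark the stretch that both replicates shared, and sequences are from the plus strand of NCBIM37, the assembly of mm9.
chr1:8343726-8343829: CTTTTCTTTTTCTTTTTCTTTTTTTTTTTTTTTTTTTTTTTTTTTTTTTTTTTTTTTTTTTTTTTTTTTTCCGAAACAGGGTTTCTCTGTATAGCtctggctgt
chr1:25750962-25751052: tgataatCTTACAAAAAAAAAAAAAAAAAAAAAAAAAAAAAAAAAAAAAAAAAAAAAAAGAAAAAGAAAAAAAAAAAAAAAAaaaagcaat
chr7:95502492-95502592: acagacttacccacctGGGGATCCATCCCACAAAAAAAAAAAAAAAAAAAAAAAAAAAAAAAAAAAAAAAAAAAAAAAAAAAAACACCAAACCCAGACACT
The first lies between genes with a fold over input of 441 and a tract of 52 T. The second lies in an intron of *Bai3*, which encodes an adhesion G protein-coupled receptor, with a fold of 402 and a tract of 47 A. The third lies between genes with a fold of 380 and 53 A. The longest tract among all the regions was 85 T, in a region with a fold of 85.5 that is shown as the extreme of the range and was chosen after its value was seen.
chr1:125215457-125215574: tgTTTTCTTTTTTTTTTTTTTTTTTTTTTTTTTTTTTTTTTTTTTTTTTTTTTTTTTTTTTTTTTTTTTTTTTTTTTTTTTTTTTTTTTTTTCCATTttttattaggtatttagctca

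The other 2 regions with the largest fold lay in exons and were longer. One covered 308 bases of *Eef1a1*, the gene of a translation elongation factor, at chr9:78327646-78327953, with a fold of 431 and no run above 4 bases. The other covered 506 bases of the gene model *Gm8759* at chr15:90594648-90595153, with a fold of 410 and a tract of 26 T. The middle 32 bases of the *Eef1a1* region occur at 7 places in the genome and those of the *Gm8759* region at 12.

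Regions near the limit of the rule looked different. The smallest overlaps were 5 bases on chr10 and chr14, 6 bases in *Kctd1*, 7 bases in a coding exon of *Polr1b* and 15 bases in an intron of *Pde4b*. None of these 5 held a tract, and their longest runs of A or T were 4 to 9 bases. They are shown, apart from *Kctd1*, so that they can be set beside the regions with the largest fold.
chr10:82417780-82417937: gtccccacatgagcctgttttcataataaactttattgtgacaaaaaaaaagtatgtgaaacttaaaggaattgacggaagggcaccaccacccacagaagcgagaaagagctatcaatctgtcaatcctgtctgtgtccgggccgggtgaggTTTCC
chr14:44074243-44074374: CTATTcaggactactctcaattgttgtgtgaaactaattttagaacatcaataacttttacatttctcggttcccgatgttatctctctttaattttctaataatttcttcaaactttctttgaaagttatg
chr2:128948810-128948981: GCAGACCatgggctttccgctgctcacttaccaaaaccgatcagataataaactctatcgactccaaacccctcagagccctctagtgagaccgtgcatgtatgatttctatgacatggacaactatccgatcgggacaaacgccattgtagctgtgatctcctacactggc
chr4:102018167-102018321: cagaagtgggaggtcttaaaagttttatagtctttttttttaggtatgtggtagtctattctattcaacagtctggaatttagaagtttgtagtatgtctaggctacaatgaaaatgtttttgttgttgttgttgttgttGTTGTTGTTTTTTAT
Their folds over input were 32.2, 22.1, 22.1 and 21.6 in the order shown, and that of *Kctd1* was 71.8. The last one holds a repeat of a 3 base unit over 29 bases.

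Just outside the rule, the 5 closest pairs of peaks were separated by 7, 7, 12, 13 and 14 bases, with folds of 71.8, 34, 71.8, 51.3 and 51.3. Of those 5 only the fourth held a tract, of 27 bases.

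Tracts were more frequent in the shared regions than in the other peaks of the same libraries. Among the 72061 other replicate 1 peaks under the same exclusions, 7.66% held a tract (7.47 to 7.86). Among the 7021 other replicate 2 peaks the share was 24.7% (23.7 to 25.7). In the control lists, taken on autosomes outside the chromosome 7 window, it was 7.21% of 1998 WT NSC peaks, 0.253% of 1184 *Snord116del* *116HG* peaks and 0.499% of 3205 *Snord116del* NSC peaks. The share depended on the width of the peak. Among replicate 1 peaks of 20 to 79 bases, 56.6% of the 6132 others (55.4 to 57.8) and 96.9% of the 784 shared regions (95.5 to 98) held a tract. At 80 to 99 bases it was 15.9% (14.9 to 17) and 96.7% (94.5 to 98.2), and at 130 to 159 bases 2.29% and 79.3%. Narrow replicate 1 peaks thus often held a tract without being shared, and in each width class the share was higher in the shared regions. Windows of the same width placed 1 kb to each side of the shared regions held a tract in 10 of 3114 cases (0.321%). Intervals on these shares cover counting error only, since the peaks of a library are not replicates, and no test was run between peak classes.

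**Figure D1:**
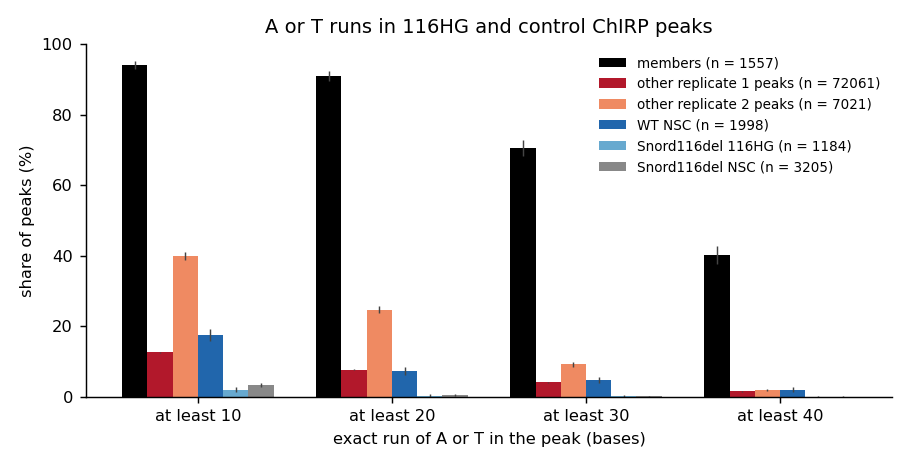
Share of peaks (y axis, %) that hold an exact run of A or T of at least 10, 20, 30 or 40 bases (x axis), for the shared regions (members, black), the other peaks of both WT *116HG* replicates and the 3 control lists. Bars are shares with exact 95% intervals; at 20 bases the shared regions stand at 90.9% and the other replicate 1 peaks at 7.66%.

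Tracts were long as well as frequent. The longest run in a shared region had a median of 37 bases, with quartiles of 28 and 44, against a median of 4 bases in the other replicate 1 peaks. A run of at least 30 bases was present in 1098 regions (70.5%) and one of at least 40 bases in 625 (40.1%). No shared region held a run of 20 G or C (0%, up to 0.237%). A tandem repeat of at least 20 bases, single-base runs included, was present in 1433 regions (92.0%, 90.6 to 93.3). The median GC content was 20.6% with quartiles of 15.5 and 27.3, against 48.0% in the other replicate 1 peaks, 36.7% in the other replicate 2 peaks and 42.1% in the windows 1 kb away. Both strands were represented alike: the tract was A on the plus strand in 698 of 1416 regions (49.3%, 46.7 to 51.9).

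The shared regions were narrow. Their median width was 79 bp, with quartiles of 70 and 95, against 159 bp for the other replicate 1 peaks and 95 bp for the other replicate 2 peaks. The median stretch common to both replicates was 67 bp, which was 85.2% of the replicate 1 peak at the median. The middles of the paired peaks lay 12.5 bases apart at the median. In 1288 regions both peaks shared at least 50% of their length. The median fold over input was 82.6, from 20.2 to 441, and was 84.5 in regions with a tract and 71.8 in those without. Within the tract regions the fold was weakly related to the tract length (Spearman's rho = 0.24 across 1416 regions of 1 library, a description without a test).

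The tract was in the stretch that both replicates shared. That stretch held a run of at least 20 bases in 1408 of the 1557 regions (90.4%, 88.9 to 91.8). In 1373 of the 1416 tract regions (97%) the whole run lay inside it. The share of replicate 1 peaks with a tract did not decline gradually with distance from a replicate 2 peak. It was 11.6% (3.89 to 25.1) for the 43 peaks whose nearest replicate 2 peak lay within 100 bp without overlap, 12.2% (8.13 to 17.4) for the 213 peaks at up to 500 bp, and between 7.20% and 8.35% in each class beyond that. For peaks more than 100 kb away it was 8.10%, inside the interval of the first of these classes and just below that of the second. Peaks close to a replicate 2 peak without touching it thus had tract shares far below the 90.9% of the shared regions.

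**Figure D2:**
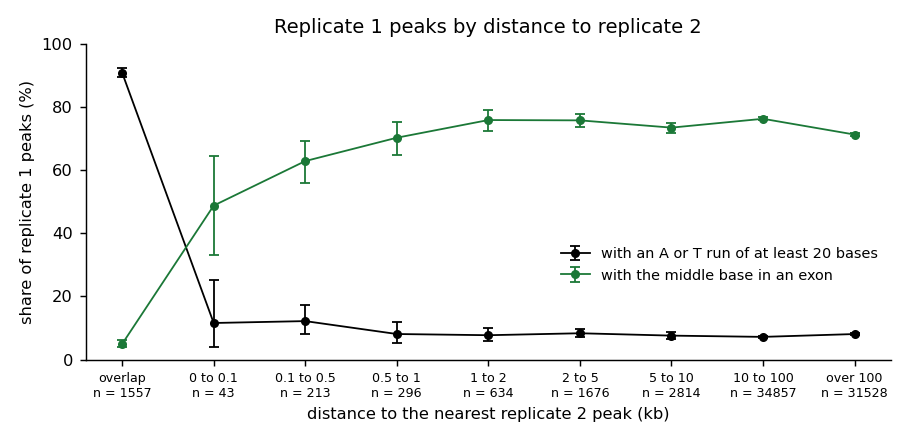
Share of replicate 1 peaks (y axis, %) with a tract of at least 20 bases (black) and with their middle base in an exon (green), by distance to the nearest replicate 2 peak in kb (x axis). Points are shares with exact 95% intervals and n is the number of peaks; the tract share is 90.9% at overlap and 11.6% in the next class, while the exon share goes from 4.95% to 48.8%.

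On the strand that reads A, the edges of the paired peaks differed between replicates. Replicate 1 peaks began 30 bases before the tract at the median (quartiles 26 and 34) and ended 8 bases after it (3 and 17). Replicate 2 peaks began 22 bases before it (13 and 29) and ended 19 bases after it (11 and 26). The larger overhang was on the 5' side of the A run in 86.7% of replicate 1 peaks (84.8 to 88.4) and in 53.5% of replicate 2 peaks (50.9 to 56.2). Replicate 1 peaks thus leaned to the side of the sequence before the A run, and replicate 2 peaks were close to centred on it.

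**Figure D3:**
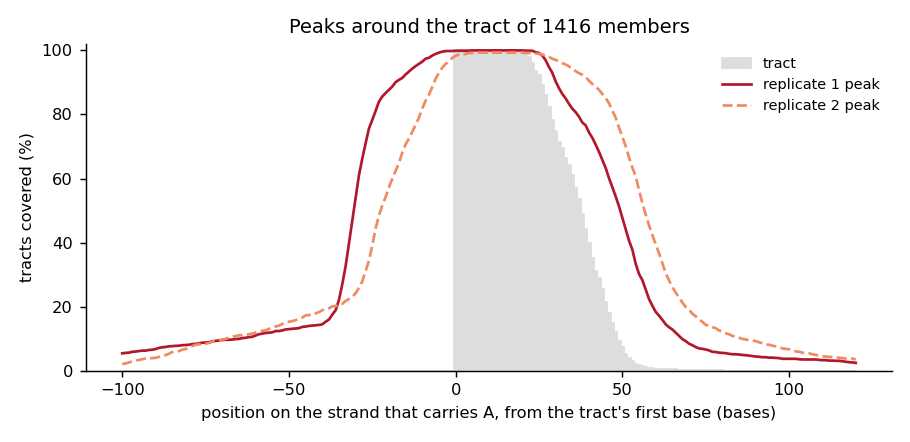
Coverage of the tract by the paired peaks in the 1416 regions with a tract, aligned at the first A on the strand that carries A (x axis, bases) with the share of tracts covered (y axis, %). The solid line is the replicate 1 peak, the dashed line the replicate 2 peak and grey the tract itself; at 20 bases before the tract, 87.7% of replicate 1 peaks and 57.3% of replicate 2 peaks are present.

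The sequence before the A run was close to that before other A runs. In the 40 bases before the A run, the most frequent words of 8 bases were AGAGAAAC (22.4% of the 1416 tracts, 20.2 to 24.6), AAACCCTG (21.3%) and CCTGTCTC (17.7%), which all occur at the 3' end of B1 elements. Among all 64754 autosomal A or T runs of at least 20 bases the same words stood at the same place in 22.0%, 21.5% and 18.7%. The words were searched on the strand that carries A, and words with 6 or more of the same base or that shared 5 bases with a more frequent one were passed over. The first sequence shown above holds the first 2 of these words on its minus strand. In the 40 bases after the A run no word stood in more than 1.84% of tracts. The most frequent were AACCAAAC (1.84%, 1.2 to 2.68), CAACAACA (1.84%) and GGAAAGAA (1.77%, 1.15 to 2.6), which stood in 1.05%, 1.4% and 0.791% after all runs. The words on both sides were picked by their frequency in the shared regions. That choice favours higher shares there, and the intervals do not allow for it. The median GC content was 42.5% before and 37.5% after the tract in the shared regions, and 42.5% and 40% around all runs.

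A census of the genome shows the same pattern from the side of the sequence. The autosomes outside the chromosome 7 window hold 64754 runs of A or T of at least 20 bases, 11917 of at least 30 and 2660 of at least 40. Replicate 1 had a peak over 11.2% of the runs of at least 20 bases, 35.5% of those of at least 30 and 67% of those of at least 40. Replicate 2 had one over 5.12%, 15.4% and 29.7%, and a shared region lay over 2.27%, 9.36% and 23.6%. The share climbed with length in both replicates: in replicate 1 from 3.46% of runs of 20 to 24 bases to 53.7% of runs of 40 to 44 bases and 93.0% of those of 50 to 59 bases. All 23 runs of 60 bases or more lay under a replicate 1 peak, and 12 of them under a replicate 2 peak. In replicate 2 the share was 40.7% at 45 to 49 bases and 38.0% at 50 to 59 bases, within each other's intervals.

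In the control lists long runs were rarely covered. Of the 2660 runs of at least 40 bases, 42 lay under a WT NSC peak and none under a *Snord116del* *116HG* or *Snord116del* NSC peak. In WT NSC the share also climbed with length, from 0.0993% at 20 to 24 bases to 2.34% (1.02 to 4.56) at 50 to 59 bases. The WT lists and the *Snord116del* lists each come from separate libraries, and genotype and library cannot be told apart for lists of 1 library each. The number of peaks also differed between lists, from 1280 in *Snord116del* *116HG* to 78033 in WT *116HG* replicate 1, and its part in these shares was not tested. By the read totals in the study, a smaller fraction of reads aligned in each WT pulldown library than in either *Snord116del* library. WT *116HG* replicate 2 had the smallest fraction. The part of this difference was not tested either.

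**Figure D4:**
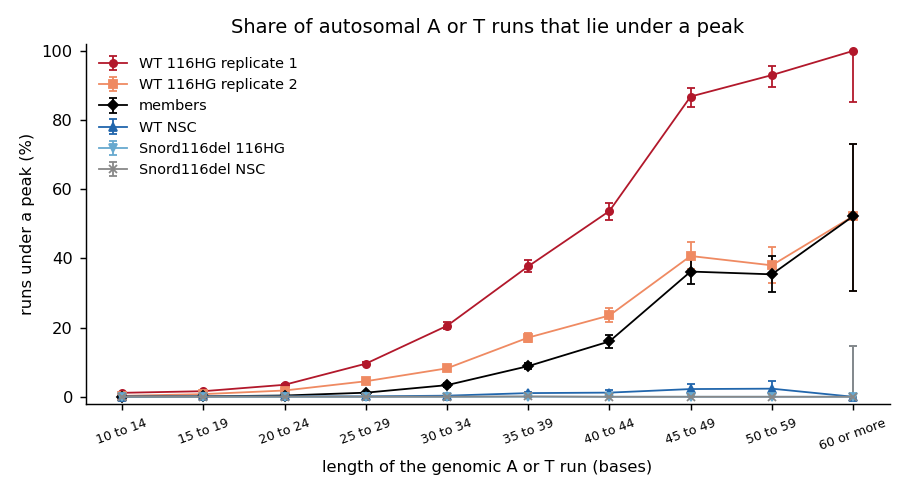
Share of autosomal A or T runs (y axis, %) that lie under a peak, by length of the run in bases (x axis), for each ChIRP list and for the shared regions (members). Bars are exact 95% intervals; replicate 1 goes from 3.46% at 20 to 24 bases to 93.0% at 50 to 59 bases, while both *Snord116del* lists stay below 0.1% up to 39 bases and have no covered run above that length.

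Among peaks that held a long run, most replicate 2 peaks were shared. Of the replicate 2 peaks under the same exclusions with a run of 45 to 49 bases, 238 of 254 overlapped a replicate 1 peak (93.7%), as did 112 of 115 with a run of 50 to 59 bases. Of those with no run above 9 bases, 103 of 4324 did (2.38%). In replicate 1, 42.8% of peaks with a run of 45 to 49 bases were shared and 0.146% of the 63098 peaks with no run above 9 bases. These shares describe the rule from the side of the run length and were not tested.

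Most shared regions had a middle that was not single-copy. The middle 32 bases occurred once in the genome in 460 regions (29.5%, 27.3 to 31.9), against 83.9% of the other replicate 1 peaks and 33.8% of the other replicate 2 peaks. The control lists, in which tracts were rarer, had shares of 18.5% in WT NSC, 29.6% in *Snord116del* *116HG* and 47.8% in *Snord116del* NSC. In 233 of the 1416 tract regions (16.5%) these 32 bases were A or T only, a word with 68123 occurrences on both strands of the assembly. With 50 bases in place of 32, 72.0% were single-copy. At least 1 single-copy stretch of 32 bases lay somewhere in 1300 regions (83.5%, 81.6 to 85.3). How the authors treated reads with several equally good placements is not given in the sources used here, and its part in these results was not tested.

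Most shared regions lay outside exons. Their middle base lay in an exon in 77 regions (4.95%, 3.92 to 6.14), in an intron in 598 (38.4%) and between genes in 882 (56.6%). Of the other replicate 1 peaks 73.9% lay in exons, and of the other replicate 2 peaks 1.74%. Regions within 5 kb of a start site numbered 343 (22.0%, 20.0 to 24.2), against 44.3% and 20.7%. Of the 1467 runs of at least 20 bases under a shared region, 1.36% lay in exons (0.835 to 2.1), 39.3% in introns (36.8 to 41.9), 59.3% between genes (56.7 to 61.8) and 19.5% within 5 kb of a start site (17.5 to 21.6). Of all 64754 such runs it was 1.35%, 42.7%, 55.9% and 22.2%, so that the exon share was within the interval and the other 3 shares were just outside it. For runs of at least 30 bases under a shared region, 37.6% lay in introns (34.7 to 40.5) and 61.5% between genes (58.6 to 64.4). Near start sites lay 18.2% (16 to 20.6). Of all runs of at least 30 bases it was 38.9%, 60.3% and 19.6%, each within the interval. In genes of 1 strand the A was on the sense strand in 239 of 562 tract regions (42.5%, 38.4 to 46.7), and in 39.2% of all runs of at least 20 bases.

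Every autosome held shared regions, from 49.8 per 100 Mb on chromosome 7 to 85.9 on chromosome 5, with a median of 61.5. The share of runs of at least 30 bases under a shared region was between 6.48% on chromosome 11 and 12.6% on chromosome 5. Only 48 of the 1557 regions had another within 10 kb.

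Runs inside genes were covered at every level of the gene in cortex. Of runs of at least 30 bases in genes with a mean under 0.1 FPKM over the 4 RNA groups, 41 of 381 lay under a shared region (10.8%, 7.83 to 14.3). In genes of 0.1 to 1 FPKM it was 7.59% (6.20 to 9.18), in genes of 1 to 10 FPKM 9.39% (8.22 to 10.7), and in genes of at least 10 FPKM 9.76% (7.37 to 12.6). All replicate 1 peaks together covered 32.8% (28.1 to 37.8), 30.7% (28.2 to 33.3), 35.9% (33.9 to 37.9) and 36.8% (32.7 to 41) of the runs in the same classes, more at 1 to 10 FPKM than at 0.1 to 1 FPKM with intervals that do not overlap. FPKM is the number of fragments scaled to transcript length and library size.

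The 141 regions without a tract (9.06%, 7.68 to 10.6) were of another kind. Their median width was 160 bp and their median GC content 46.4%, against 78 bp and 19.6% in the tract regions. Of these, 42 lay in exons (29.8%, 22.4 to 38.1), whereas 35 of the 1416 tract regions did (2.47%). The middle 32 bases were single-copy in 67 (47.5%). In 33 the longest run was 15 to 19 bases, and 17 held a tandem repeat of at least 20 bases with a longer unit. An example is a region in an intron of *St8sia1*, which encodes a sialyltransferase, made up of a 5 base unit and printed for that reason.
chr6:142886255-142886323: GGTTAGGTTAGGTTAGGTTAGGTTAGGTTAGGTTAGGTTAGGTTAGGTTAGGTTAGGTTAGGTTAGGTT
Regions in exons of annotated U1 genes, whose RNA is the splicing factor that pairs with 5' splice sites, numbered 5. They had folds over input of 103, 133, 103, 103 and 123, and their middle 32 bases occur 13 to 15 times in the genome. The one at chr12:55811306-55811412, which like the *St8sia1* region was chosen after its values were seen, shared 95 bases between replicates.
chr12:55811306-55811412: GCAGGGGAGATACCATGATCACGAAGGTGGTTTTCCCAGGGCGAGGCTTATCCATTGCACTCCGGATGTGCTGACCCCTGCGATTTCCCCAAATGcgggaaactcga

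The 5 longest shared stretches, of 293 to 406 bases, were also free of tracts. They lay in the noncoding exon of *C230081A13Rik* (chr9:56071372-56071777), between genes with no gene within 2 kb, near *Sfi1* (chr11:3030758-3032059), in an intron of *Gphn*, which encodes the gephyrin scaffold of inhibitory synapses (chr12:79451857-79452161), and near *Hnrnpa1* (chr15:103074716-103075479).

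Inside the window of chromosome 7 that the rule leaves out, overlapping peaks were of yet another kind. There 79 replicate 1 peaks overlapped a replicate 2 peak, none held a tract (0%, up to 4.56%), their longest run was 7 bases and their median GC content was 46.8%. Outside it, 97 overlapping autosomal pairs were left out because they met a control peak, mostly of WT NSC (71), and 61.9% of these held a tract (51.4 to 71.5).

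Genes were joined to a shared region within 2 kb of the gene. This gave 663 of the 23235 genes in the RNA table, 603 of them with 1 region and 60 with more. A region with a tract was near 576 and one without near 92. The genes with most regions were *Cadm2*, *Ctnna3* and *Dlgap1* with 4 each. A further 9 genes had 3 (*Ccr9*, *Epha6*, *Fgfr2*, *Gm10052*, *Gpc5*, *Lrp1b*, *Nckap5*, *Pisd-ps1* and *Sfi1*), of which the first 2 in alphabetical order are described. *Cadm2* encodes a synaptic cell adhesion molecule, and its 4 intronic regions had tracts of 26, 55, 42 and 30 bases. *Dlgap1*, a scaffold of the postsynaptic density, had tracts of 60, 46, 27 and 32 bases in its introns. *Ctnna3*, an alpha-catenin of cell contacts, had 40, 49, 30 and 38, and *Epha6*, an ephrin receptor, 50, 26 and 35. The 3 regions of the chemokine receptor gene *Ccr9* had no tract, with longest runs of 19, 5 and 4 bases. The 5 genes described are long, from 104 kb (*Ccr9*) to 1574 kb (*Ctnna3*), and the median length of tested genes at shared regions was 90 kb, against 23.2 kb over all tested genes.

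Of the genes that the study discusses for ChIRP, *Ccdc12* had a shared region, at chr9:110601636-110601703 in an intron, with a fold of 68.6 and a tract of 47 T. *Mtor*, the kinase of nutrient signalling, *Crebbp*, a histone acetyltransferase, and *Igf2r*, an imprinted receptor, had none. They had 15, 36 and 7 other replicate 1 peaks within 2 kb. *Mtor* and *Crebbp* were higher in *Snord116del* at Zt +6 as deposited, with log2 ratios of FPKM + 1 of 0.65 and 1.55, and after scaling *Mtor* turned to -0.07 while *Crebbp* was at 0.80. *Igf2r* had 0.938 and 3.1 FPKM and passed the filter used below through that *Snord116del* group alone. For *Mtor*, the study reported higher transcript in the mutant cortex in the light phase by qRT-PCR, relative to *Gapdh*, in a larger set of mice. It also reported a stronger mTOR protein signal there. Those measurements were not tested by the scaled group values.

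A shared region lay within 2 kb of 2.85% of all genes in the RNA table. Among synaptic adhesion and scaffold genes 7 of 27 in the table had a shared region (13 regions), among glutamate and GABA receptors 5 of 36 (7 regions), among core clock genes 3 of 23, among ubiquitin ligases and proteasome genes 2 of 40, and among mTOR signalling genes 1 of 29. None of 16 genes of H3K4 methyltransferase complexes, 26 histone acetyltransferases and deacetylases or 45 imprinted genes had one. The lists were not matched to all genes on length, and nothing is called particular to a list. Replicate 1 peaks outside the shared regions lay near 24, 34, 20, 36 and 26 genes of the first 5 lists and near 13, 24 and 29 genes of the last 3. *Arntl*, the activator BMAL1 of the clock, had a 73 bp region with a tract of 44 A in an intron. *Rorb*, a nuclear receptor of the clock, had a tract of 47 A in a region placed in an exon, and *Nfil3*, a clock output repressor, had one of 40 A outside the gene. *Rheb*, the GTPase that activates mTORC1, had a region in an exon without a tract and with a fold of 154.

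Transcript levels came from bulk cortex, in which fewer cells of a type and less RNA per cell cannot be told apart. The neuronal *Snap25* was at 417 to 590 FPKM and the cortical glutamate transporter gene *Slc17a7* at 60.3 to 127 FPKM in the 4 groups, and the liver gene *Alb* at most at 1.14 FPKM. *Snord116* is listed at 0 in all groups, so it does not check the deletion. *Ipw*, a noncoding RNA of the same paternal transcript, had 21.6 FPKM in WT against 3.4 FPKM in *Snord116del* at Zt +6, and 3.17 against 1.82 FPKM at Zt +16. The WT value at Zt +16 was thus close to the *Snord116del* value at Zt +6, so *Ipw* does not check the deletion across times either. A gene was counted as higher or lower where FPKM + 1 differed 1.5-fold or more between genotypes and either genotype reached 1 FPKM. The 10297 genes whose mean over the 4 groups reached 1 FPKM are called tested. With 1 value per group this is a description without a test.

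At Zt +6, 299 of the 430 tested genes at shared regions were higher in *Snord116del* (69.5%, 64.9 to 73.9), beside 49.3% of all tested genes. Lower were 17 (3.95%), beside 7.62%. Of the 430, 76 reached the mean of 1 FPKM through *Snord116del* at Zt +6 alone, the group in which they could then be counted as higher. With the mean taken over the other 3 groups, an alternative chosen after seeing the data, 228 of 354 were higher (64.4%, 59.2 to 69.4), beside 44% of all genes so tested. The median log2 ratio of FPKM + 1 was 0.97 at shared regions and 0.57 over all tested genes, so the whole table was shifted. When groups were scaled to the same median, 130 of the 430 were higher (30.2%) and 49 lower (11.4%), beside 15.0% and 24.4% of all tested genes. At Zt +16, 34 of the 430 were higher (7.91%, 5.54 to 10.9), beside 19% of all tested genes, and 0 were lower, beside 0.204%. The median log2 ratio was 0.26 against 0.35. After scaling, 1 was higher (0.233%), beside 1.22%.

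These shares moved with gene length, by which the tested genes were split into 4 classes of equal size. Among the longest genes, over 58.2 kb, 77.9% of all and 82.7% of those at shared regions (220 of 266, 77.6 to 87.1) were higher at Zt +6. In the class from 23.2 to 58.2 kb it was 59% and 56%, and in that from 9.14 to 23.2 kb 38.4% and 38.6%. Below 9.14 kb it was 22.0% of all and 10 of the 23 at shared regions. At Zt +16 the order was turned around, with 5.35% of all and 5.26% of those at shared regions higher in the longest class and 38.8% and 26.1% in the shortest. The share over all tested genes lay within the interval of the genes at shared regions in every class except the shortest at Zt +6 (23.2 to 65.5) and that from 23.2 to 58.2 kb at Zt +16 (3.57%, 0.743 to 10.1, beside 10.3%). Genes at a region without a tract had 51 of 67 higher at Zt +6 (76.1%, 64.1 to 85.7), and genes at a tract 251 of 368 (68.2%, 63.2 to 72.9). Beside them stood 49.3% of all tested genes, and neither group was split by gene length.

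**Figure D5:**
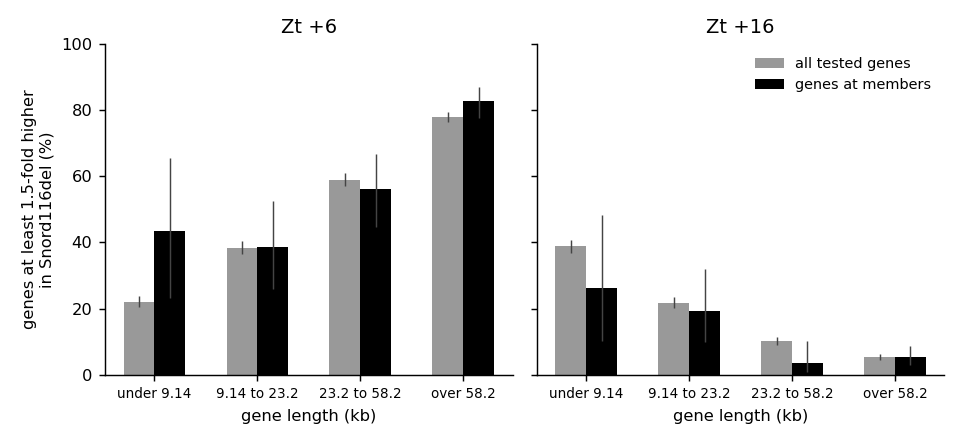
Share of genes at least 1.5-fold higher in *Snord116del* than WT cortex (y axis, %) by gene length in kb (x axis), at Zt +6 (left) and Zt +16 (right), for all tested genes (grey) and those within 2 kb of a shared region (black). Bars carry exact 95% intervals; in the longest class the shares are 77.9% and 82.7% at Zt +6 and 5.35% and 5.26% at Zt +16.

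The genes at shared regions with the largest ratio of FPKM + 1 at Zt +6 were *Dgkb*, a diacylglycerol kinase, *Pcdh7*, a protocadherin, *A930011O12Rik*, *Fzd3*, a Wnt receptor, and *Ano3*, an anoctamin. *Dgkb* had 2.31 FPKM in WT against 15.1 in *Snord116del* at Zt +6, and 0.680 against 0.862 at Zt +16. *Pcdh7* was at 3.33 and 18.7 FPKM at Zt +6 and at 1.01 and 1.32 at Zt +16. *Fzd3* was at 2.05 and 11.6 FPKM, and at 0.707 and 0.995. All 5 stayed past 1.5-fold after scaling, and their regions lay in introns, with tracts of 58 T in *Dgkb*, 37 T and 28 T in *Pcdh7* and 31 T in *A930011O12Rik* and runs of 15 bases in *Fzd3* and *Ano3*. The 4-region genes *Cadm2* (3.61 and 15.5 FPKM) and *Dlgap1* (15.3 and 35.2 FPKM) were also higher at Zt +6, the second not past 1.5-fold after scaling. *Ctnna3* and *Ccr9*, with means under 1 FPKM, were not tested.

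The genes with the smallest ratio at Zt +6 were *Lsmd1*, *Ccdc12*, *Chchd6*, a protein of mitochondrial cristae, *Ndufb3*, a subunit of respiratory complex I, and *Fars2*, the mitochondrial phenylalanine tRNA synthetase. *Lsmd1* had 86.7 FPKM in WT against 23.3 in *Snord116del* at Zt +6, and 135 against 264 at Zt +16. *Ccdc12* was at 19.3 and 5.95 FPKM, and at 26.5 and 40.1. *Ndufb3* was at 70.9 and 36.3 FPKM, and at 106 and 163. In all 5 genes the WT level was above the *Snord116del* level at Zt +6 and below it at Zt +16. All 5 were lower at Zt +6 after scaling too. At Zt +16 none was past 1.5-fold after scaling. The scaled log2 ratios there were 0.50 in *Lsmd1*, 0.13 in *Ccdc12*, 0.05 in *Chchd6*, 0.15 in *Ndufb3* and 0.10 in *Fars2*. Before scaling, the median log2 ratio of all tested genes at Zt +16 was itself 0.35. At Zt +16 the largest ratios were those of *Gm9846* (90.3 and 198 FPKM), *Lsmd1* and *Arpc4*, an Arp2/3 complex subunit (9.77 and 19 FPKM), of which *Gm9846* alone stayed past 1.5-fold after scaling. As 0 genes were lower at Zt +16, none is named.

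Of the clock genes with a region, *Arntl* had 1.44 FPKM in WT against 3.57 in *Snord116del* at Zt +6, *Rorb* 1.82 against 9.50, and *Nfil3* 2.44 against 1.79. At Zt +16 they were at 0.701 and 0.761, 0.620 and 0.876, and 1.85 and 2.54 FPKM. *Arntl* passed the filter through *Snord116del* at Zt +6 alone. After scaling *Arntl* did not stay past 1.5-fold at Zt +6, *Rorb* did, and *Nfil3*, within 1.5-fold before, was lower. Of the 20 tested genes of the clock list, 16 were higher at Zt +6 before scaling. The 7 synaptic adhesion and scaffold genes (*Cntn4*, *Dlg1*, *Dlg2*, *Dlgap1*, *Magi2*, *Nlgn1* and *Nrxn3*) were all higher at Zt +6, as were 22 of the 25 tested genes of their list, and none at Zt +16, where 2 of the 25 were. After scaling *Dlg1*, *Dlgap1* and *Magi2* were no longer past 1.5-fold at Zt +6. Of the 32 tested genes of the receptor list, with or without a region, 31 were higher at Zt +6. Of the receptor genes with a region, *Gria1* (13.8 and 25.4 FPKM) and *Grm8* (1.62 and 3.43 FPKM) were higher at Zt +6 and no longer past 1.5-fold after scaling. *Gabrg3* (0.953 and 3.52 FPKM) and *Grm7* (1.19 and 4.74 FPKM) passed the filter through *Snord116del* at Zt +6 alone, so they had to differ, and *Grik1* was under it. The ubiquitin ligase genes with a region were *Wwp1* and *Wwp2*. *Wwp1* (1.36 and 4.91 FPKM) was higher at Zt +6, also after scaling, and likewise passed the filter through *Snord116del* at Zt +6 alone. *Wwp2* (1.99 and 2.96 FPKM) was within 1.5-fold. Of the 40 tested genes of the ubiquitin ligase and proteasome list, 25 were higher at Zt +6.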

How the data were processed

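ChIRP-seq peak lists of 5 libraries and an RNA-seq table of 4 groups were analysed. Per the submitters' processing notes and methods, the authors aligned ChIRP reads to mm9 with Bowtie2 2.0.0, called peaks with MACS 1.4.2 and filtered them at 5% false discovery rate and 20-fold enrichment. Each deposited peak of the other 4 lists carries its fold over input, a ratio made by the authors' caller; the list of replicate 2 has positions only. The authors aligned RNA reads with TopHat2 2.0.5 and deposited Cuffdiff 2.0.2 FPKM, with 1 value for each gene in each group. That table's columns of the authors' own comparison (log2 fold change, q-value, call) were left aside. The lists give no depth.

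Members and lists were chosen with earlier results of these data known; tracts were noticed in the sequences of the members. Starts were converted to 1-based. Overlap needed 1 base. Sequence and places came from NCBIM37 with GENCODE vM1, by the peak's middle base; 21853 of 23235 table genes matched by symbol. Occurrences of the middle 32 bases were counted on both strands. A tandem run repeats a unit of 1 to 6 bases over at least 20 bases. Shares carry exact Clopper-Pearson 95% intervals. Regions named are the 5 members with the largest fold, the 5 longest shared stretches, the 5 smallest overlaps and the 5 nearest pairs without overlap; those up to 300 bases outside UTRs and chromosome 18 are printed. Genes named are 4 the study discusses for ChIRP, the 5 with most regions (ties in alphabetical order), list genes with a region, and the 5 highest and 5 lowest ratios at Zt +6 and 3 and 3 at Zt +16 past 1.5-fold. Software was scipy 1.17.1, numba 0.67.0, pandas 2.3.3, pysam 0.24.0, numpy 2.4.6 and matplotlib 3.10.9 under Python 3.11.15, and the scripts' counts were tested on simulated data. Alternatives changed the overlap, the fold of the peaks, the use of control peaks, the repeat measures, the distance to genes and the FPKM rule.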

Additional observations from a re-analysis of the deposited data

Results flagged for a closer look

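The rule leaves out chromosome X, and the overlapping peaks there came to attention as a signal in data that no comparison above uses. On chromosome X 135 replicate 1 peaks overlapped a replicate 2 peak, and 92.6% of them (125, exact 95% interval 86.8 to 96.4) held a run of at least 20 A or T. Of the 1642 peaks of the 3 control lists on chromosome X, 0.487% did (8, 0.211 to 0.958).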

How the results depend on the processing

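Under 99 alternative settings, 50 values stayed within the interval of the reported value (counts within 1.5 times, GC content within 1 SD over regions) and 49 did not. Those on A or T runs, on regions without a tract and on a filter over the other 3 groups were added after the data had been seen. With a reciprocal overlap of at least 50%, the exon share was 1.86%, that near start sites 19.7%, the single-copy share 25.9%, the tandem repeat share 95% and the tract share 94.4%. In the upper quartile of fold over input, 761 regions and 322 genes remained, with an exon share of 6.31% and a tract share of 92.5%. With control peaks not used, the tandem repeat share was 90.3% and the tract share 89.2%. Placed by the replicate 2 peak, the exon share was 3.73% and the single-copy share 23.6%. With single-copy middles alone, the exon share was 8.26%, that near start sites 24.6%, the tract share 85.4% and the genes 262. Over 50 bases the single-copy share was 72.0%. For tandem runs of at least 30 bases the share was 71.4%, and for A or T runs of at least 30 bases 70.5% and of at least 10 bases 94.1%. Regions without a tract had an exon share of 29.8%, 44% near start sites, and 76.1% of genes higher at Zt +6 and 4.48% at Zt +16.

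Leaving out WT *116HG* replicate 2 or replicate 1 takes all peaks of the other list, and the values then ranged from 2.12% to 72.5% for the exon share, 21.0% to 43.8% near start sites, 32.0% to 82.7% for the single-copy share, 13.3% to 49.8% for tandem repeats, 34.3% to 47.8% for median GC content, 9.42% to 36.6% for tracts, 2779 to 12455 for genes, 51.6% to 66.4% for genes higher at Zt +6 and 9.87% to 19.5% at Zt +16.

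Genes higher at Zt +6 were 74.4% (all tested genes 56.1%) with a pseudocount of 0.1, 52.3% (26.9%) without the filter on FPKM, 30.2% (15.0%) with scaled groups, 47.0% (26.7%) at 2-fold and 64.4% (44%) with the filter over the other 3 groups. Under the first 4 of these, they were at Zt +16 17.2% (30.3%), 5.17% (8.84%), 0.233% (1.22%) and 0.233% (1.22%). No paired analysis was possible because the RNA table holds 1 value per group and the peak lists are not paired across groups. Depth per peak is unknown, and replicate 2 peaks could not be ranked.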
